A study of Arabidopsis thaliana with 4 samples.

Results

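Alternative splicing was described in 7 ribosomal protein genes of Arabidopsis thaliana. The genes encode the large-subunit proteins L32e (AT5G46430 and AT4G18100) and L13e (AT5G23900, AT3G49010 and AT3G48960), an L29 family protein (AT1G07830) and a 60S acidic protein of the stalk (AT4G00810). They were taken by gene identifier from the deposited event table, together with all of their events, and had been picked with the differences in that table known. The table holds 14133 events in 5268 genes. It lists 12 events in 5 of the 7 genes and none in AT4G18100 or AT3G48960. Polyadenylated RNA came from 14-day-old seedlings of the ecotypes Landsberg erecta, labelled Ler, and Columbia, labelled Col, with 2 samples each, grown on Murashige and Skoog plates with sucrose under short days. The labels name the first leaf as source in one field and shoots in another. Neither ecotype carries a transgene or treatment in the labels. No expression levels are given, so the tissue could not be checked against marker levels; of 7 genes of Rubisco, Rubisco activase and the light-harvesting complex, 2 hold events, 4 in all.

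Ribosomal proteins bind ribosomal RNA in the subunits on which mRNA is translated, and plants keep several near-alike gene copies for most of them. An intron is removed between a donor site, whose intron nearly always begins with GT, and an acceptor site, whose intron nearly always ends with AG. Moving a site in an intron that lies before the start codon changes the untranslated leader of the mRNA and not the annotated protein. The inclusion level is the percentage of the form with more exon: the longer exon end or the kept intron. The authors deposited 1 pooled level per ecotype, so the levels come without an SD, an n or an interval, and their read depth is unknown. A marked event is an event that the authors' deposited table signs as higher in Ler or in Col. Of all 14133 events, 7.46% are marked, 3.38% as higher in Ler and 4.08% as higher in Col.

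The 3 acceptor sites of the intron before the start codon of AT5G46430 carry the largest marked differences among these genes, and their sequences are shown for that reason. Each window holds 10 intron bases and 10 exon bases of the Col reference (TAIR10), read 5′ to 3′ on the plus strand, with the last 2 intron bases in capitals. The windows lie at chr5:18833403-18833422, chr5:18833405-18833424 and chr5:18833409-18833428.
First acceptor: gattttgtTGaggaagagga
Middle acceptor: ttttgttgAGgaagaggagt
Last acceptor: gttgaggaAGaggagtaaaa
Shared donor (10 exon bases, then 10 intron bases with the first 2 in capitals, chr5:18833292-18833311): tctaatcaccGTaagcttct

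In the Col reference the intron of the first acceptor would end in TG, and those of the middle and last acceptors end in AG. The exons that follow the 3 sites begin 16, 14 and 10 bases before the start codon. The middle and last sites are annotated, each in 1 transcript, and the first is in neither. With the transcription start of the longer annotated transcript, the leader would have 78 bases with the first site, 76 with the middle site and 72 with the last. The coding sequence of 402 bases is the same in both annotated transcripts.

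AT5G46430, which encodes an L32e protein of the cytosolic large subunit, used different acceptors in the ecotypes. In the choice between the first and the last site, which are 6 bp apart (chromosome 5, 18833413 to 18833418), the first site had a level of 99.5% in Ler and was listed at 0 in Col. In the choice between the first and the middle site, 2 bp apart, it had 99.2% in Ler and was again listed at 0 in Col. Both are marked as higher in Ler in the authors' deposited table, with q values of 0 and 1.48e-224. The choice between the middle and the last site, 4 bp apart, had the middle site at 58.3% in Ler and 12.6% in Col. This difference of 45.7 points is unmarked in the authors' deposited table, which lists q = 0.00147 for it. The interval from the donor to each site had the same length in Ler as in Col, with introns of 111, 113 and 117 bp.

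The retention levels of the same intron were listed against each acceptor in turn. Against the first acceptor the level was 0.996% in Ler and 99.1% in Col, and the authors' deposited table marks this event as higher in Col (q = 2.13e-134). Against the middle acceptor it was 55.6% in Ler and 33.0% in Col (q = 0.174 in the authors' deposited table, no mark). Against the last acceptor it was 66.7% in Ler and 6.25% in Col, a difference of 60.4 points that the authors' deposited table leaves unmarked with q = 3.95e-08. The level against a site is thus high in the ecotype where that site had little or no use, so these levels are not shares of transcripts with a kept intron. All 6 events of the gene share 1 donor and 3 acceptors and are not independent of each other.

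The 3 retention levels can be joined if each is read as unspliced reads over unspliced reads plus those of that junction, which is an assumption about how the authors computed them. Read so, the first acceptor made up 97.7% of the 4 forms in Ler and 0.0523% in Col. The middle acceptor made up 0.787% in Ler and 11.2% in Col, and the last acceptor 0.492% in Ler and 83.2% in Col. Unspliced RNA made up 0.983% in Ler and 5.54% in Col. The same reading gives 99.5% for the first site over the last in Ler, where 99.5% is listed, and 11.9% for the middle site over the last in Col, where 12.6% is listed. In Ler it gives 61.5% for the middle site over the last, where 58.3% is listed, a pair that together made up little of the RNA there. For the first site in Col it gives 0.463% against the middle site and 0.0628% against the last, and both are listed at 0.

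**Figure D1:**
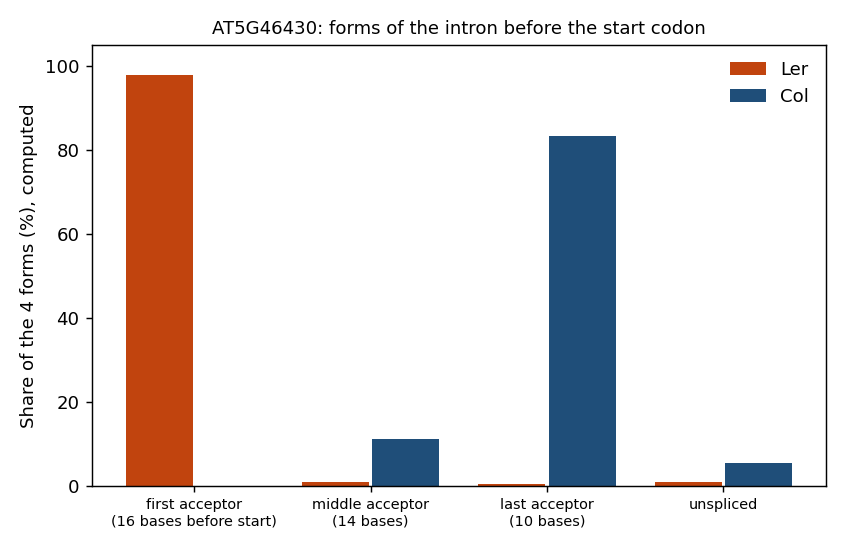
Computed share of the 4 forms of the AT5G46430 intron before the start codon (y axis, %), for Ler (left bars) and Col (right bars), with each acceptor's distance to the start codon in bases. The first acceptor takes 97.7% in Ler, and the last takes 83.2% in Col; there is 1 pooled value per ecotype and no error bar.

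AT4G18100, the other L32e gene, has no event in the table. Its coding sequence of 402 bases is 89.1% identical to that of AT5G46430, with 32 bases as the longest identical run. Both genes have an intron after the first 90 coding bases. AT4G18100 has no annotated intron before its start codon: its leader of 172 bases is a single stretch that runs into the coding sequence. The intron that differed between the ecotypes in AT5G46430 therefore has no annotated counterpart in AT4G18100. AT5G46430 splits its remaining coding sequence into exons of 182 and 130 bases, where AT4G18100 has 312 bases in 1 exon. A small nucleolar RNA gene of 77 bases, AT5G06825, lies within AT5G46430 on the same strand, downstream of the intron before the start codon.

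The marked event of AT5G46430 with the largest difference was set beside the other marked 3' site events, 251 in all, by the summed distance of both levels over the 2 ecotypes. The nearest were AT5G22210, an amidotransferase subunit (0.101 points away), AT1G07960, a protein disulfide isomerase-like protein (0.132 points), and AT1G19650, a Sec14p-like lipid transfer protein (0.479 points). These likenesses rest on 2 pooled values each. Their inclusion acceptors in the Col reference are shown to set them beside the first acceptor of AT5G46430, with the last 2 intron bases in capitals.
AT5G22210 (chr5:7359518-7359537, plus strand): tatgatgtATgtaaagatcg
AT1G07960 (chr1:2467608-2467627, plus strand): tgcaattaTTttgcaaattt
AT1G19650 (chr1:6797308-6797327, minus strand): tttattttAAatcaaggcca

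None of these 3 introns would end in AG in Col, as for AT5G46430. The choice by level largely set this in advance. Of 21 placed 3' site events with a likewise high level in Ler and 0 in Col, 19 have AG only at the other acceptor. Among 4011 alternative 3' site events that could be placed on the Col reference, 33 have an inclusion acceptor without AG and another acceptor with AG, and 2 of the 33 are the events of AT5G46430. Of the 33, 32 are listed at 0 in Col, the median level is 94.5% in Ler, and 20 are marked, all 20 as higher in Ler in the authors' deposited table. The class was made by the Col letters, so a site in it could hardly be listed other than through use in Ler. Levels of 0 in Col and marks towards Ler were thus largely set in advance. The intron has another length in Ler in 11 of the 33 and in 5 of the 20. Of the 3956 events with AG at both acceptors, 231 (5.84%) are marked, 86 as higher in Ler and 145 as higher in Col. Of 8 events with AG at the inclusion acceptor only, 1 is marked, as higher in Col. Of 14 events with AG at neither acceptor, 1 is marked, also as higher in Col. The bases at these sites in the Ler genome were not analysed here.

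AT5G23900, an L13e gene, had the largest listed difference of the 7 genes, and it carries no mark. Its 3' site event was at 99.9% in Ler and listed at 0 in Col, and the authors' deposited table gives q = 1. The sites of this event are 1 bp apart in Ler. The coordinate of the inclusion site is missing in Col, the ecotype listed at 0, so the level in Col does not show that the site was unused. The intron has 406 bp in Ler and 398 bp in Col. The acceptor that is placed in both genomes is the annotated one, and its exon begins 4 bases before the start codon. It is shown beside the acceptor of the corresponding intron of AT3G49010, with the last 2 intron bases in capitals.
AT5G23900 acceptor (chr5:8065076-8065095, minus strand): tgttgcttAGaaaaatgaag
AT3G49010 acceptor (chr3:18168052-18168071, minus strand): tttttggcAGcttgagttga

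AT3G49010, an L13e gene annotated as BBC1, had 3 events and no mark. In the intron before its start codon, a donor 72 bp downstream of the main one (chromosome 3, 18168577 to 18168648) was used at 1.27% in Ler and 1.92% in Col (q = 0.385 in the authors' deposited table). The retention level listed for the 515 bp interval from that minor donor was 31.6% in Ler and 18.4% in Col, a difference of 13.2 points (q = 0.608 in the authors' deposited table). That level is taken against the minor donor only. Read as for AT5G46430, unspliced RNA made up 0.584% of the 3 forms in Ler and 0.431% in Col, and the main upstream donor 98.2% in Ler and 97.7% in Col. Other annotated transcripts have introns of 465, 259 and 225 bp before the start codon, and their exons cover parts of the 515 bp interval. They were not counted as forms, so reads in that interval need not be unspliced RNA. The donors are shown with the first 2 intron bases in capitals.
Main donor (chr3:18168639-18168658, minus strand): gattctctctGTgagttttc
Minor donor (chr3:18168567-18168586, minus strand): ttgtgtataaGTagggttct

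The remaining event of AT3G49010 is the only placed event of these genes within a coding sequence. Donors 6 bp apart (chromosome 3, 18167291 to 18167296) add 6 bases to the coding exon of 153 bases, giving 159, and keep the reading frame. The longer exon had a level of 97.9% in Ler and 98.1% in Col (q = 0.963 in the authors' deposited table). The tandem donors each begin with GT.
Longer exon (chr3:18167281-18167300, minus strand): caaggtcaagGTaatcatta
Shorter exon (chr3:18167287-18167306, minus strand): tgcccgcaagGTcaaggtaa

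The L13e genes share a coding layout: AT5G23900, AT3G49010 and AT3G48960 each have 621 coding bases in exons of 106, 134, 159 and 222 bases. Coding identity was 82.0% between AT5G23900 and AT3G49010, 79.7% between AT5G23900 and AT3G48960, and 86.3% between AT3G49010 and AT3G48960. AT5G23900 and AT3G49010 both have an intron before the start codon, and every event of AT5G23900 and 2 of 3 events of AT3G49010 involve it. AT3G48960, which has no event in the table, is annotated from the start codon with no leader. No event of an L13e gene is marked.

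**Figure D2:**
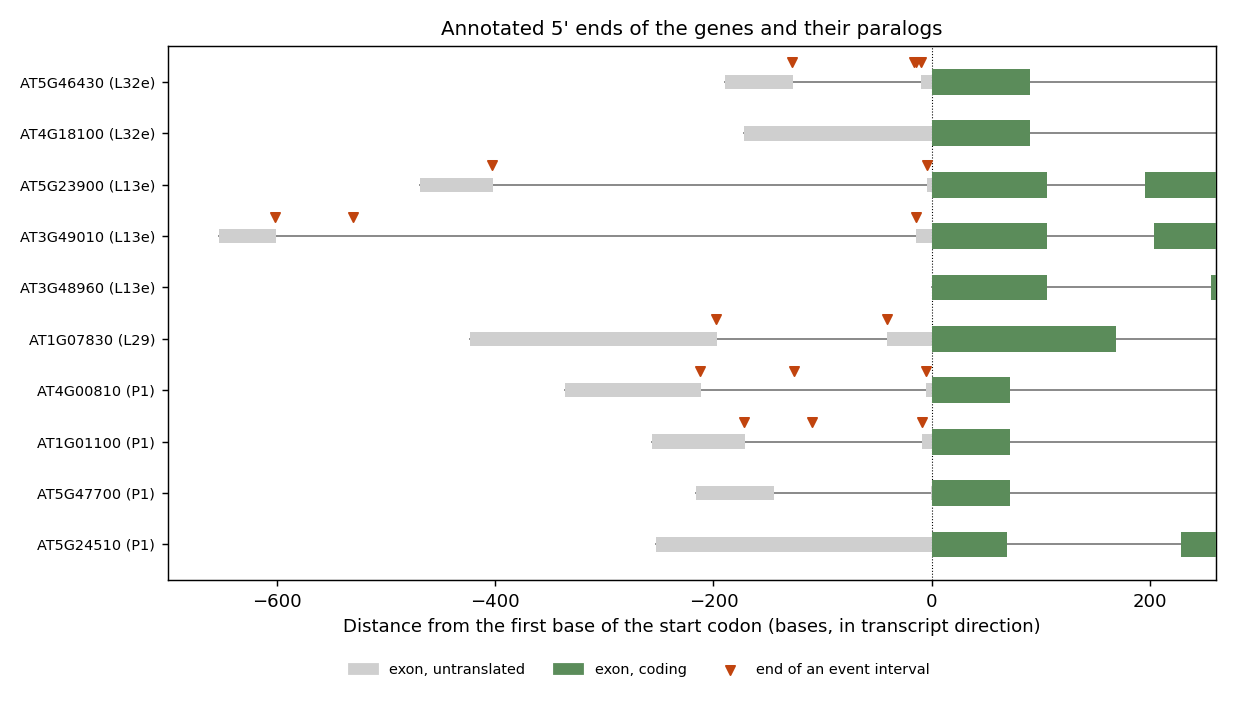
Annotated exons around the start codon in the L32e, L13e and P1 genes and in AT1G07830 of the L29 genes, 1 transcript per gene, against the distance from the start codon in bases (x axis). Grey boxes are untranslated exons, green boxes coding exons, lines introns, and triangles the ends of the intervals in the event table. In AT5G46430, AT5G23900, AT3G49010, AT1G07830, AT4G00810 and AT1G01100 the triangles within the plotted range sit on the intron before the start codon. The ends of the coding-span events of AT3G49010 and AT1G01100 lie beyond that range. AT4G18100, AT3G48960 and AT5G24510 have no intron before the start codon.

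AT1G07830, an L29 family protein that the annotation places in the mitochondrial ribosome, kept less of its 156 bp intron before the start codon in Ler. Retention was at 8.43% in Ler and 31.1% in Col (chromosome 1, 2422352 to 2422507), a difference of 22.7 points. The authors' deposited table marks the event as higher in Col (q = 0.00829). It is the single event of the gene, so no other junction competes for this intron in the table. The intron has the same length in both genomes and canonical ends, and the retained form is not annotated.
Donor (chr1:2422342-2422361, plus strand): tctatctccgGTgagttctt
Acceptor (chr1:2422498-2422517, plus strand): tgatgatcAGattatataac

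The retained intron of AT1G07830 would add 156 bases to a leader of 267 bases. It holds 2 ATG triplets on the sense strand. Of 85 inclusion segments before start codons within 10 bp of that length, 62.4% hold at least 1. The 5' end of AT1G07830 lies 59 bp from AT1G07820, a gene on the opposite strand, and whether reads were assigned by strand is unknown.

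The other L29 genes in the annotation are AT2G39390, AT3G09500, AT3G55170, AT5G02610 and AT5G65220, and AT3G55170 is the only one of them with an event. Its 68 bp intron in the coding span was retained at 25.2% in Ler and 10.9% in Col, a difference marked as higher in Ler, with q = 0.00764, by the authors' deposited table. The retained form of this intron is annotated. The marked introns of AT1G07830 and AT3G55170 thus lie at different places in the genes and moved in opposite directions. Their coding sequences are 65.5% identical over the 342 aligned bases, with no identical run longer than 6 bases.

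AT4G00810, a 60S acidic protein of the P1 type, shifted between donors of the intron before its start codon. Proteins of this type form the flexible stalk that brings elongation factors to the ribosome. The donor 86 bp downstream, which keeps 86 more leader bases (chromosome 4, 347083 to 347168), was used at 13.1% in Ler and 31.1% in Col, a difference of 17.9 points. The shift is marked as higher in Col, with q = 1.95e-18, in the authors' deposited table. Both donors are annotated and both begin with GT, and the intron has 206 bp from the upstream donor in both genomes.
Upstream donor (chr4:347159-347178, minus strand): gtagtctgagGTatttttct
Downstream donor (chr4:347073-347092, minus strand): tattgtgctcGTacgataag
Shared acceptor (chr4:346953-346972, minus strand): ggttttgcAGagacaatgtc

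The 86 bases between the donors hold no ATG on the sense strand. Of 206 segments before start codons within 10 bp of that length, 46.6% hold at least 1. The transcripts annotated with each donor have separate starts: their leaders have 130 bases with the upstream donor and 114 with the downstream donor. The level therefore compares donors and does not show which transcription start was used.

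AT1G01100, a paralog of AT4G00810 with 82.6% identical coding bases, has the same kind of donor pair at the corresponding intron. Its downstream donor, 62 bp away (chromosome 1, 51064 to 51125), was used at 0.320% in Ler and 0.129% in Col (q = 0.508 in the authors' deposited table). The downstream form was thus rare in AT1G01100 in both ecotypes and not in AT4G00810. Its 62 bases hold 1 ATG, and 38.4% of 86 segments of like length hold at least 1. AT1G01100 also had a 48 bp interval in the coding span listed as retained at 98.8% in Ler and 98.9% in Col. AT5G47700, with 85.5% coding identity to AT4G00810, has an intron before the start codon and no event. AT5G24510, at 64.8%, has no such intron and no event.
AT1G01100 upstream donor (chr1:51116-51135, minus strand): ttactcttagGTagtctatg
AT1G01100 downstream donor (chr1:51054-51073, minus strand): catcgtctggGTtgttcgac

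**Figure D3:**
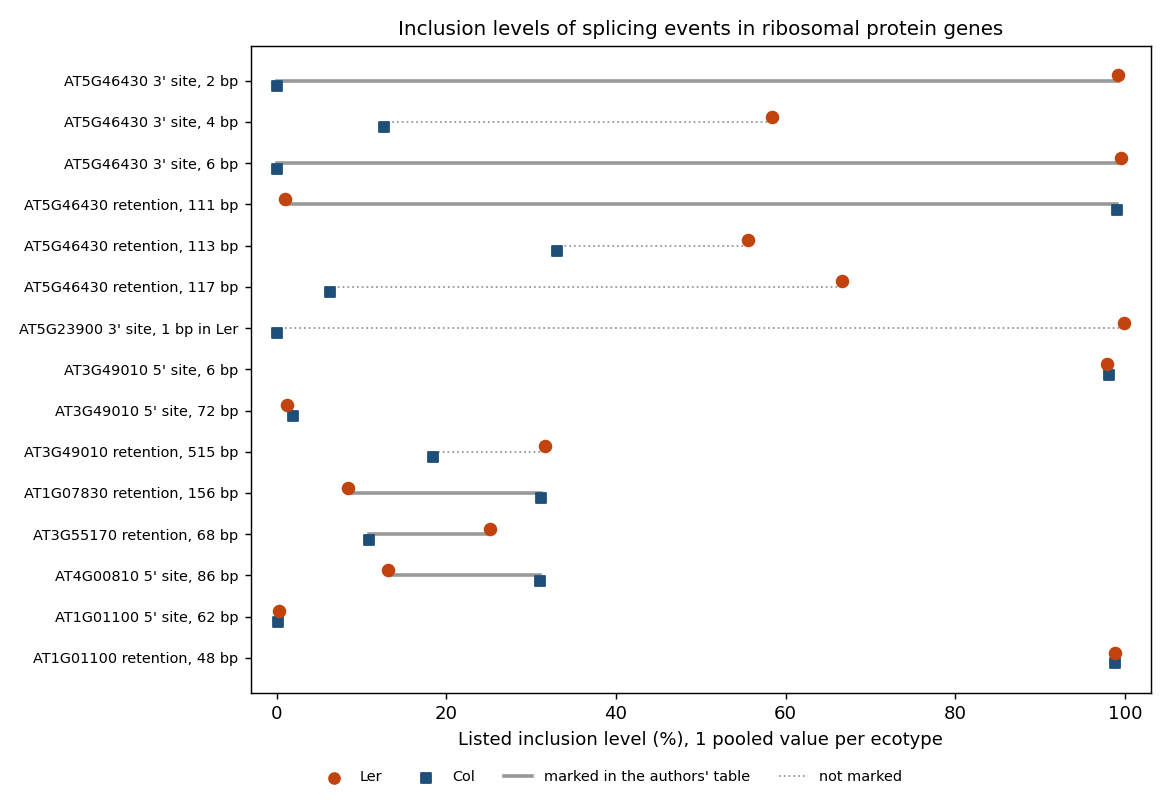
Listed inclusion level (x axis, %) of the 12 events and of the paralog events of AT3G55170 and AT1G01100, with Ler as circles and Col as squares, 1 pooled value each; solid lines join levels of events marked in the authors' table. AT5G46430 spans nearly the whole scale between the ecotypes, AT1G07830 and AT4G00810 differ by 22.7 and 17.9 points, and the levels of AT1G01100 nearly coincide.

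Across the 12 events, 5 are marked (41.7%), 2 as higher in Ler and 3 as higher in Col, in AT5G46430, AT1G07830 and AT4G00810. The share of all events is 7.46%, but these genes were chosen by such differences and the comparison is a description. The median absolute difference was 34.2 points over the 12 events and 3.78 points over all events. The 12 are not independent: AT5G46430 holds 6 of them and 3 of the 5 marks, all at 1 intron. They also include the AT5G23900 event, whose inclusion site has no coordinate in Col. The median thus rests largely on these 2 genes. Of the 12, 5 are retention events, 4 are 3' site events and 3 are 5' site events. By type, 8.38% of retention events, 6.28% of 3' site events and 6.32% of 5' site events in the table are marked. The events with q under 0.05 numbered 7, against 14.3% of all events, and all 7 differ by at least 10 points, against 8.41%. The 2 of these without a mark are the AT5G46430 events named above, and the whole table holds 135 unmarked events with q under 0.05 and over 10 points. Marked with at least 20 points were 4 of the 12, against 4.2% of all events.

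Most of the 12 events lay before the start codon, a position that the choice of genes did not name but is not independent of. The segment lay before the start codon in 10 of the 12 (83.3%), and all 5 marked events are among these 10. The event of AT5G23900, whose segment could not be placed, involves an intron before the start codon too. Of the events in other ribosomal protein genes, 39 of 120 (32.5%) lay before the start codon, and of all events 1965 of 14133 (13.9%). AT5G46430 supplies 6 of the 10. Counted by gene, 4 of the 5 genes with events had a placed segment before the start codon, against 28 of the 75 other ribosomal protein genes and 979 of all 5268 genes with events. Of all events before start codons, 11.3% are marked, against 7.46% of all events. A choice of genes by such differences therefore also favours this position.

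Other ribosomal protein genes were taken from the annotation by product or description. The annotation lists 400, all 7 genes above included, and 75 of the others hold 120 events. Among the 75 is AT1G69610, which entered by its description, while its product is a putative zinc finger FYVE domain protein. The 7 genes, picked for their differences, are left out of the 120. The share marked and the differences there are not independent of that choice, and its part in them was not tested. Of these 120 events, 2 are marked (1.67%, against 7.46% of all events), 1 as higher in Ler and 1 as higher in Col, each in its own gene. These are AT3G55170, described above, and AT5G58990, whose product is named after a mammalian mitochondrial small-subunit protein, S34. The intron of AT5G58990 (chromosome 5, 23815310 to 23815697) was listed as retained at 42.4% in Ler and 96.2% in Col (q = 3.46e-05 in the authors' deposited table). It has 439 bp in Ler and 388 bp in Col. None of the 39 events before start codons in these 75 genes is marked, against 11.3% of all such events. The 7 genes left out hold 10 such events, and 5 of those are marked. The lack of marks before start codons thus holds only with these genes left out, and is no trait of ribosomal protein genes as a whole.

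The median absolute difference of the 120 events was 1.27 points. Median levels were 87.8% in Ler and 89.5% in Col, against 55.6% in Ler and 56.1% in Col for all events. These levels lie nearer the top of the scale, and whether that bears on the small differences was not tested. The largest unmarked difference was in PSRP4, a plastid-specific ribosomal protein, with an 85 bp intron at 35.1% in Ler and 75% in Col (q = 0.0492 in the authors' deposited table). RPL34, which encodes a protein of the cytosolic large subunit, followed with a 642 bp intron at 60% in Ler and 89.7% in Col (q = 0.669 in the authors' deposited table). A difference of over 50 points occurred in 1 of the 120 events (0.833%) and in 299 of all events (2.12%). Read depth bears on which differences can be marked, and it was not used here.

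**Figure D4:**
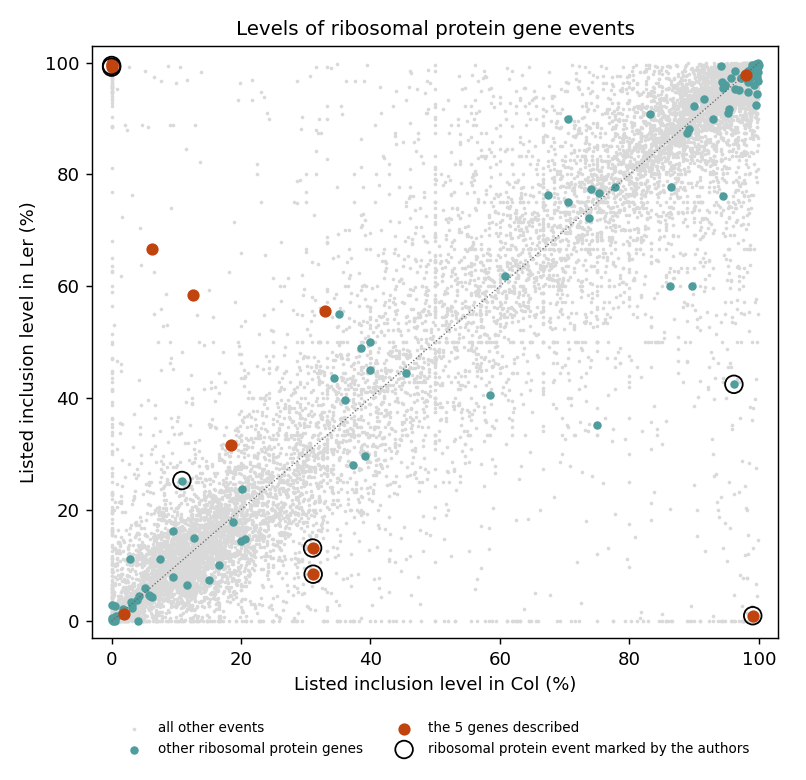
Listed inclusion level in Ler (y axis, %) against that in Col (x axis, %) for all 14133 events (grey), the 120 events of other ribosomal protein genes (teal) and the 12 events of the 5 genes (orange), with circles round the ribosomal protein events marked in the authors' table. Most teal points follow the dotted line of equal levels, and 2 of them are circled; the AT5G46430 events lie in the corners and above the line.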

How the data were processed

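RNA sequencing of 4 samples, 2 per ecotype, was used as deposited. Per the submitters' processing notes, TopHat and the build TAIR10 were used; no versions are given there. The authors deposited the inclusion level as a fraction, 1 pooled value per ecotype, per the file headers, with a text cell that holds a sign and a q value. Not given in the sources used here were the read minimum, the test, the Ler assembly, strandedness and whether samples came from separate plantings. Levels were multiplied to percent, and differences are Ler minus Col.

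Intervals in the table run from the last exon base to the first base of the next exon: 4756 of 7399 retention intervals (64.3%) equalled annotated RefSeq TAIR10.1 introns in this form and 0 when shifted by 1 bp, and 93.2% had GT and AG ends. A segment is before the start codon if it lies wholly upstream of all annotated coding bases. Sequences are from that reference, credited to RefSeq, and are those of Col. Coding sequences were aligned globally with Biopython 1.88, and bases were read with pysam 0.24.0 under Python 3.11.15. The parsing was tested on simulated events.

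A count test over samples had been foreseen if the table gave counts per sample; it holds pooled fractions, so the authors' marks are described. The genes and lists were chosen with earlier results of these data known. Ribosomal protein genes were those whose product names a ribosomal protein, or whose description gives ribosome structure as function with a ribosomal product or domain. Genes on the list by product name alone were left out where the product names an enzyme, an S5 domain, an elongation factor or the L18ae or ClpS family; 1 gene with a ClpS product, AT3G06040, stayed because its description gives ribosome structure as function. Of the others, up to 20 marked genes were to be named, by size of difference, and the largest unmarked differences were chosen after their values were seen. Only 2 of the genes with events name an organelle in the product, with 3 events and no mark.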

Additional observations from a re-analysis of the deposited data

How the results depend on the processing

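The count of 5 marked events among 12 was 7 with q under 0.05, with or without a minimum of 10 points, 4 with a minimum of 20 points, and 5 of 11 without lost coordinates or another length. It was 3 of 5 with 1 event per gene and 3 of 9 without levels of 0, all 3 higher in Col in both settings. Without levels of 0, the AT5G23900 event and both first-acceptor events of AT5G46430, the only calls higher in Ler, drop out. With 1 event per gene, the AT5G23900 event stays. In both settings the AT5G46430 call that stays is its retention against the first acceptor, which is not a share of transcripts with a kept intron. The lack of calls higher in Ler is thus no change in that gene. For the other ribosomal protein genes, 2 of 120 became 13 (10.8%) with q under 0.05 alone, against 14.3% of all events. It became 1 with a minimum of 20 points, 1 with 1 event per gene (of 75) and 1 without another length in Ler (of 99). Taking the level of the other form turns every sign by construction: Ler minus Col becomes 22.7 for AT1G07830, 17.9 for AT4G00810, and −99.2, −99.5 and 98.1 points for the marked AT5G46430 events. No paired analysis was possible because the table gives 1 pooled level per ecotype; leaving out a replicate was not run for the same reason. Depth is unknown, so a level of 0 cannot be given an upper limit, and reads shared between paralogs were not tested.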
